A study of Mus musculus with 4 samples.

Results

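Chemokines are small secreted proteins that steer migrating cells, and each acts through receptors of the G protein-coupled family. The genes described here were taken by symbol, as every gene that the array platform's annotation calls Ccl, Cxcl, Ccr or Cxcr plus a number, with Xcl1, Cx3cl1 and Cx3cr1. They numbered 48 of the 18193 genes read by a probe set that names 1 gene, with 33 ligands and 15 receptors. A probe set is the group of array probes that reads 1 transcript or a few. A further 4 probe sets, which read members of the Ccl19, Ccl21 and Ccl27 families, name several genes and were left out.

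Expression was measured on 4 Affymetrix mouse arrays, 1 for each group. Snai1 knockout and control (F/F) mouse embryonic stem cells were either grown as embryoid bodies, aggregates that started as hanging drops and differentiated in suspension, and collected on day 5, or injected under the skin of the hind limbs of male nude mice aged 6 weeks, and collected as teratomas at week 6. How Snai1 was deleted, whether the cells of a genotype are 1 clone, and whether a teratoma RNA came from 1 tumour or several could not be read from the labels. Nude mice have no normal thymus but keep their other leukocytes, blood vessels and stroma, so a teratoma RNA can hold host transcripts. Because no group was measured again, replicate error is unknown, no test was run, and each difference compares 2 RNA samples. In whole-tissue RNA, fewer cells of a type and less RNA per cell cannot be told apart.

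Most chemokines belong to the CC or the CXC family, named for the spacing of their first cysteines. Many are made on demand by inflamed or infected tissue and call in neutrophils, monocytes or lymphocytes, while others are made steadily and place cells in lymphoid organs, skin or gut. Cxcr4 and its ligand Cxcl12 stand apart from these: they also guide gastrulating endoderm, germ cells, blood vessels and blood progenitors in the embryo, and mice that lack either die around birth.

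Values are log2 expression, so a difference of 1 is 2-fold. The floor of an array, below which a value was not read as expression, was its median over 45037 non-control probe sets: 4.73 in knockout and 4.71 in control embryoid bodies and 5.04 in the knockout and 5.08 in the control teratoma. Where 1 of 2 arrays lay below its floor, the difference from that floor is a bound, written as at least that many fold, and where both did no difference is given. Snai1 itself, read by 1 probe set of unstated position relative to the deletion, was at 3.45 in knockout and 4.78 in control embryoid bodies, and below the floor in the knockout and control teratomas at 3.44 and 3.59. The knockout and control arrays had a Pearson r of 0.982 across probe sets in embryoid bodies and 0.985 in teratomas.

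Of the 48 genes, 24 reached the floor somewhere among the 4 arrays (20 of 33 ligands and 4 of 15 receptors), while 73.1% of all 18193 genes did. By array, the knockout and control embryoid bodies had 13 and 15 of the 48 and the knockout and control teratomas 18 and 19. Only 9 genes were at or above the floor on all 4 arrays: Cxcr4, Cxcl12, Cxcl1, Cxcl10, Cxcl16, Cxcl17, Cx3cl1, Ccl25 and Ccl27a. The 24 genes below the floor on every array were Ccl1, Ccl2, Ccl5, Ccl7, Ccl22, Ccl24, Cxcl2, Cxcl3, Cxcl5, Cxcl11, Cxcl13, Cxcl15 and Xcl1 among ligands and Ccr3, Ccr4, Ccr6, Ccr7, Ccr8, Ccr9, Ccr10, Cxcr2, Cxcr3, Cxcr5 and Cxcr6 among receptors. Receptors above the floor were Cxcr4, Cx3cr1, Ccr1 and Ccr2, and of these Cxcr4 alone was above it in control embryoid bodies.

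**Figure D1:**
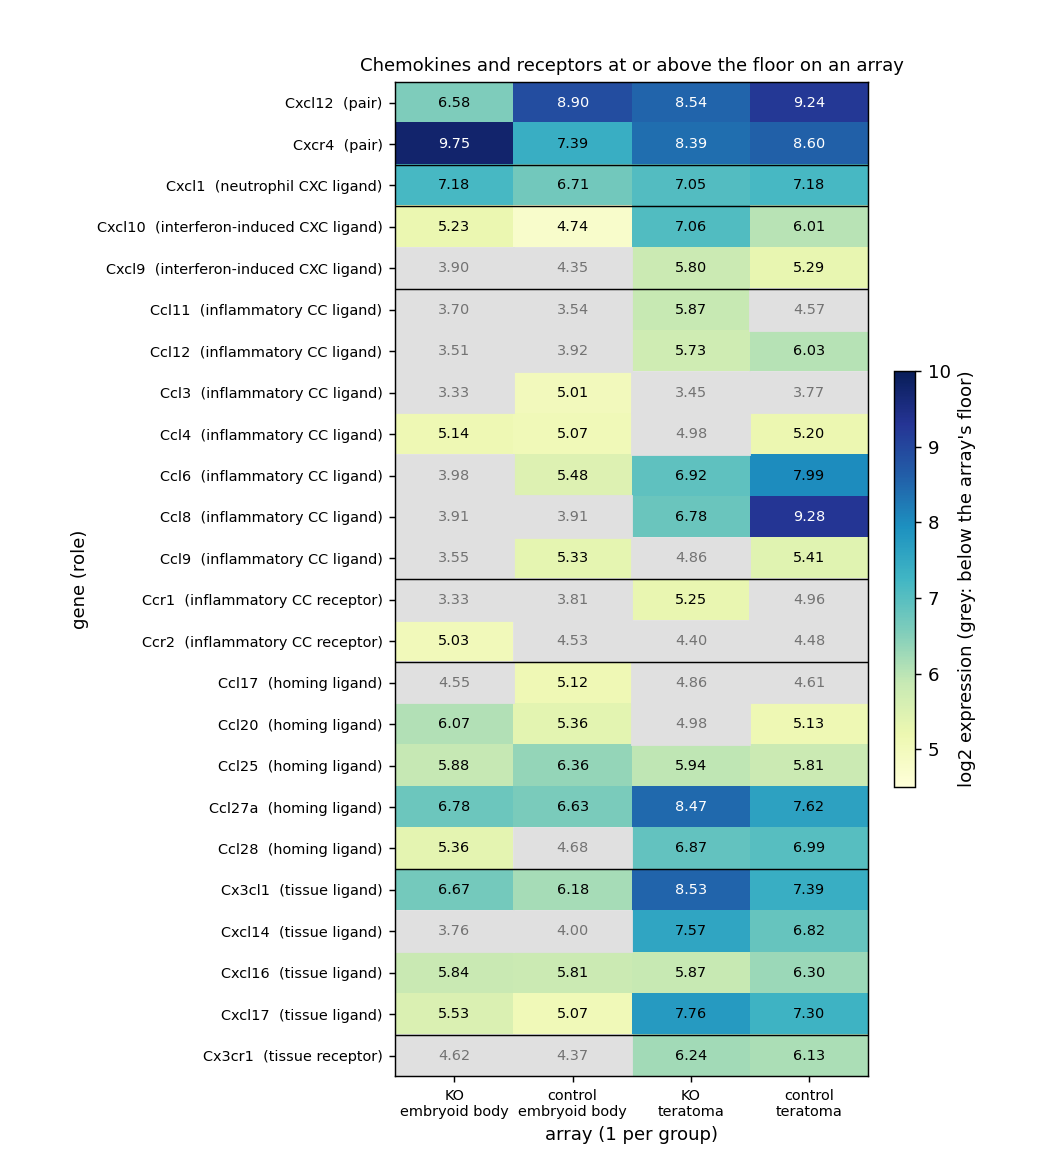
Log2 expression of the 24 chemokine and receptor genes that reached the floor, in rows grouped by role, on the 4 arrays in columns (1 array per group). Grey cells lie below that array's floor, rows are read across arrays and not against each other, and Cxcr4 and Cxcl12 hold the dark cells of the top rows, with Ccl8 at 9.28 in the control teratoma.

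The first question was how the Cxcr4 and Cxcl12 pair differed when Snai1 was absent. In embryoid bodies the receptor was higher and its ligand lower in the knockout, by about the same factor. Cxcr4 was at 9.75 in knockout and 7.39 in control embryoid bodies, and at 8.39 in the knockout and 8.60 in the control teratoma, so it was highest in knockout and lowest in control embryoid bodies. The embryoid body difference was 2.37, or 5.15-fold, and the teratoma difference -0.20. Cxcr4 was read by 1 probe set, so there is no other reading to set beside it.

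Cxcl12 was at 6.58 in knockout and 8.90 in control embryoid bodies, 5.01-fold lower in the knockout, and at 8.54 in the knockout and 9.24 in the control teratoma, a difference of -0.70. The knockout embryoid bodies held the lowest of the 4 values. A second probe set gave 7.04 against 9.58 in embryoid bodies, a difference of -2.54, and 6.32 against 7.24 in teratomas, a difference of -0.92, while the remaining one lay below the floor on all 4 arrays. Both measured probe sets were therefore lower in the knockout in both tissues, under 2-fold in teratomas. The pooled SD between probe sets of a gene, over all genes with at least 2 measured, was 0.29 in embryoid bodies and 0.28 in teratomas, a measure that shares the RNA and the array.

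Ackr3, an atypical receptor that takes up and clears Cxcl12 without G protein signalling, is outside the symbol rule and was read beside the pair. It was at 8.68 in knockout and 9.96 in control embryoid bodies, a difference of -1.27 (2.41-fold lower), and at 8.61 in the knockout and 9.20 in the control teratoma, a difference of -0.60. Knockout embryoid bodies thus had the higher Cxcr4 with the lower Cxcl12 and Ackr3 of the pair of arrays. The protease gene Dpp4, whose product trims and inactivates Cxcl12, was at 6.34 in knockout and 8.69 in control embryoid bodies, a difference of -2.35, and in teratomas at 5.01 in the knockout, below its floor, and 5.34 in the control.

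**Figure D2:**
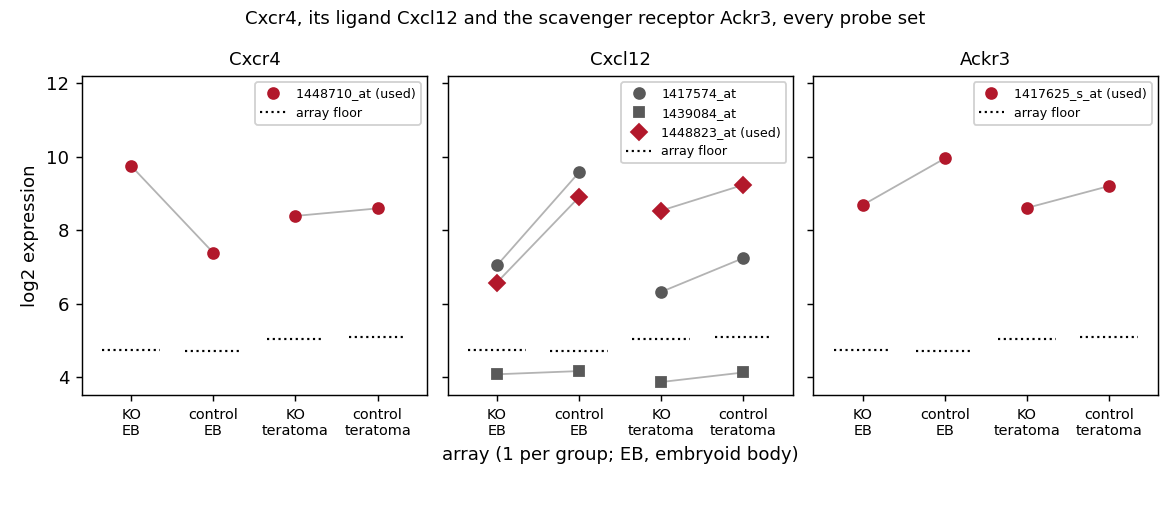
Log2 expression of every probe set of Cxcr4, Cxcl12 and Ackr3 on the 4 arrays, with dotted lines at each array's floor and red for the probe set used. In embryoid bodies Cxcr4 was 9.75 in the knockout and 7.39 in the control, while both measured Cxcl12 probe sets and the Ackr3 probe set were lower in the knockout.

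Lists of marker genes were read beside the pair. They were chosen with earlier results of these data known, so they are not independent support. Over all genes measured in embryoid bodies, 2.18% were at least 2-fold higher in the knockout and 3.98% lower. In teratomas these shares were 3.25% and 1.07%. Definitive endoderm genes (8 on the array), a cell type known to carry Cxcr4, averaged 9.35 in knockout and 7.72 in control embryoid bodies, with 7 of 8 at least 2-fold higher in the knockout. Among them Sox17 was at 10.15 against 8.92 and Lhx1 at 10.29 against 8.20. In teratomas the list averaged 6.47 in the knockout and 6.90 in the control, and 1 of 6 measured genes, Sox17, was at least 2-fold lower. Mesenchyme and stroma genes (8), whose cells are a known source of Cxcl12, averaged 6.74 in knockout and 10.85 in control embryoid bodies with 8 of 8 lower by at least 2-fold. In teratomas they averaged 10.50 in the knockout and 11.18 in the control, with 8 of 8 differences below 0 and 2 at least 2-fold lower. Endothelial genes (7) averaged 5.91 in knockout and 7.48 in control embryoid bodies, with 7 of 7 differences below 0 and 5 at least 2-fold lower. The part of these cell types in the Cxcr4 and Cxcl12 differences was not tested.

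The promoters of the pair are shown because the 2 genes differed in opposite directions and the deleted factor, Snai1, is known as a repressor that binds E-boxes of the form CAGGTG. The promoters of Cxcl10 and Ccl8 are shown for the teratoma differences described further on. Each is a RefSeq window on GRCm38.p6 from 250 bases before to 50 after the gene's start, given 5′ to 3′ on the gene's strand. Capitals mark matches to 4 motifs, searched on both strands: CAGGTG (Snail-type E-box), TATAAA (a core promoter element), GAAANNGAA (part of the interferon-stimulated response element) and GGANNTTCC (part of an NF-kappaB site).
Cxcr4 (chr1:128592250-128592549, minus strand): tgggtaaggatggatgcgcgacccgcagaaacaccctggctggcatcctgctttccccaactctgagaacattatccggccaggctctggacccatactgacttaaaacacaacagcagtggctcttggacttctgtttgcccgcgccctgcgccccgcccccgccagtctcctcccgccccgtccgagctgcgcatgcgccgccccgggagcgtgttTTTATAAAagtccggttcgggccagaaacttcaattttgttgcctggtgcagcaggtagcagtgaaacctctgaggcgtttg
Cxcl12 (chr6:117168285-117168584, plus strand): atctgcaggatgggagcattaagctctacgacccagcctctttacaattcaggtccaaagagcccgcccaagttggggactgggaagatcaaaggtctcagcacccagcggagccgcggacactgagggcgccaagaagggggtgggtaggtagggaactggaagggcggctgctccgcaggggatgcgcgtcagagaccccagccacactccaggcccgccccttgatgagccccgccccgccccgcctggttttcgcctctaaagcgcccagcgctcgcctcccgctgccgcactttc
Cxcl10 (chr5:92348840-92349139, minus strand): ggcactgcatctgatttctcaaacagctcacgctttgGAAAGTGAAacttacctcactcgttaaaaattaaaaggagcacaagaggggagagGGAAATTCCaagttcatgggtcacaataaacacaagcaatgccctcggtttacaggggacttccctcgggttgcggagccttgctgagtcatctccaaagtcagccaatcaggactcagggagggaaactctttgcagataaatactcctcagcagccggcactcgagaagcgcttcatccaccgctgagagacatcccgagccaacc
Ccl8 (chr11:82114935-82115234, plus strand): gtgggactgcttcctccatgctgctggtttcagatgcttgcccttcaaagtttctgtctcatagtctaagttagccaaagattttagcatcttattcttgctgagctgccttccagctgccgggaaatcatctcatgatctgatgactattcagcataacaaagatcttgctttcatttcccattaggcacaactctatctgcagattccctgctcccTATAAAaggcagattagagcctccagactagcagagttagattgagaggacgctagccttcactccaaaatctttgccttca

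In these 4 windows, Cxcr4 has TATAAA on both strands as overlapping matches from position -32, Ccl8 has it at -32, and Cxcl12 has none of the 4 motifs. Cxcl10 has GAAANNGAA at -213 and GGANNTTCC at -158. The letters CAGGTG do not occur in any of the 4. RefSeq windows matched 35 of the 48 genes with 39 windows, of which 9 (23.1%) held CAGGTG, 10 (25.6%) TATAAA, 6 (15.4%) GAAANNGAA and 7 (17.9%) GGANNTTCC. Over all 32851 windows the shares were 20.2%, 13.6%, 8.56% and 4.26% in the same order. GGANNTTCC lay in the windows of Cxcl1, Cxcl2, Cxcl3, Cxcl10, Ccl1, Ccl12 and Ccr3. A match is a run of letters and says nothing of binding.

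The next question was whether immune chemokines differed between knockout and control embryoid bodies. Apart from the pair, none of the 48 genes chosen by symbol differed by 2-fold above the floor, while Ackr3 and Pf4, outside the symbol rule, did. Of the 48 genes 17 were measured, 1 of them, Cxcr4, past 2-fold higher and 1, Cxcl12, past 2-fold lower, against 2.18% higher and 3.98% lower among the 12282 genes measured. The median difference was 0.15 over the 17 and 0.03 over all genes. The other 15 ranged from -0.74 (Ccl6, a bound) to 0.71 (Ccl20).

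Of the inflammatory CC ligands, 3 that attract monocytes and other myeloid cells were above the floor in control embryoid bodies and below it in the knockout. Ccl6 was at 3.98 in the knockout and 5.48 in the control, at least 1.67-fold lower, Ccl9 at 3.55 against 5.33, at least 1.51-fold lower, and Ccl3 at 3.33 against 5.01, at least 1.21-fold lower. The control values lay within 1 log2 unit of the floor, so these bounds are small. Taken without a floor the differences were -1.50 for Ccl6, -1.78 for Ccl9 and -1.68 for Ccl3, each past 2-fold. A second Ccl9 probe set, below the floor on both arrays, read 3.20 against 4.43. The second Ccl6 probe set, also below the floor on both arrays, did not share the difference, at 4.368 against 4.285. With the mean of probe sets and the floor, the bounds were -0.15 for Ccl6 and -0.15 for Ccl9. Ccl4, a related inflammatory ligand whose gene lies next to Ccl3, was at 5.14 in the knockout and 5.07 in the control.

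Of the macrophage genes, 3 of 9 reached the floor in knockout and 4 of 9 in control embryoid bodies. The macrophage colony-stimulating factor receptor gene Csf1r was at 4.90 in knockout and 7.13 in control embryoid bodies. Cd68 and Adgre1, also macrophage genes, were level, at 6.09 against 6.10 and at 4.93 in each. The signalling adaptor gene Tyrobp, from the general leukocyte list, was at 4.22 in the knockout, below the floor, against 5.80. The general leukocyte marker Ptprc lay below the floor on both arrays. Over 37 leukocyte marker genes on the array, 8 were at or above the floor in knockout and 14 in control embryoid bodies, and the 2 of 14 measured genes that were lower by at least 2-fold were Csf1r and Tyrobp, with 0 higher. Pf4, the platelet CXC chemokine whose symbol falls outside the rule, was at 5.18 against 9.87. The part of myeloid and platelet cells in the CC ligand values was not tested.

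Of the homing ligands, made steadily by lymphoid organs and barrier tissues, 5 of 8 were measured, 3 above and 2 below 0, and none passed 2-fold. Ccl20, which draws Ccr6-bearing lymphocytes and dendritic cells to epithelia, was at 6.07 in knockout and 5.36 in control embryoid bodies, 1.63-fold higher. Ccl28, a mucosal ligand of Ccr10 and Ccr3, was at 5.36 against 4.68, the control value below the floor, although its other measured probe set read 5.80 against 5.82. Differences of 0.45 to 0.50 were found for the membrane-bound ligand Cx3cl1 (6.67 against 6.18), the interferon-induced ligand Cxcl10 (5.23 against 4.74), the neutrophil ligand Cxcl1 (7.18 against 6.71) and the mucosal protein Cxcl17 (5.53 against 5.07). The other Cxcl1 probe sets differed by at least 0.31 and by 0.04, and a second Cx3cl1 probe set, at 4.84 against 4.78, by 0.06. Ccl27a, a skin ligand of Ccr10, and Cxcl16, the membrane-bound ligand of Cxcr6, differed by 0.15 and 0.04.

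On the lower side, Ccl25, the ligand that places cells in thymus and small intestine, was at 5.88 in knockout and 6.36 in control embryoid bodies, but its other probe set read 5.55 against 5.20, so its direction is not settled. Ccl17, a ligand of Ccr4, was at 4.55, below the floor, against 5.12. Among receptors, Ccr2, the main monocyte receptor, was at 5.03 against 4.53 by 1 of its 4 probe sets, and the other 3 lay below the floor.

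**Figure D3:**
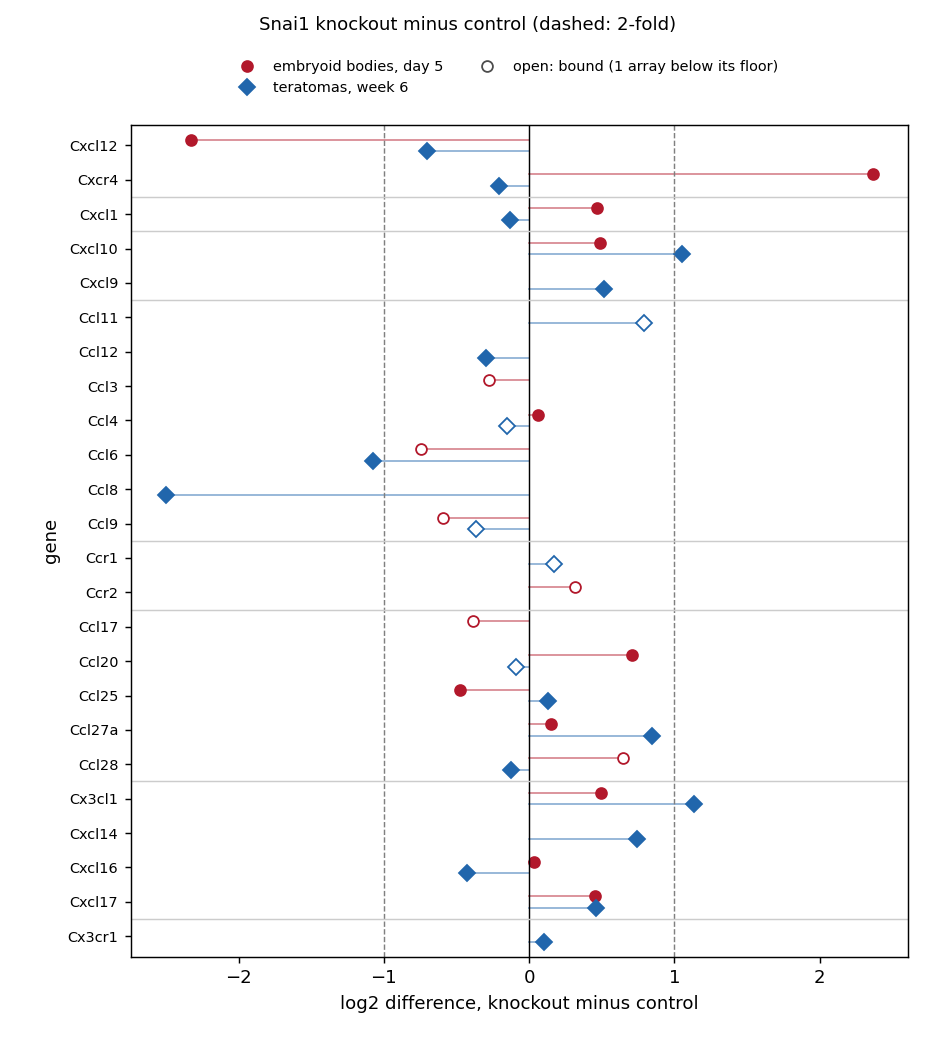
Log2 difference, knockout minus control, for the 24 genes measured on at least 1 array, in embryoid bodies (red circles) and teratomas (blue diamonds), with open symbols for bounds and dashed lines at 2-fold. Cxcr4 at 2.37 and Cxcl12 at -2.32 stand outside the lines in embryoid bodies, and Ccl8, Ccl6, Cxcl10 and Cx3cl1 in teratomas.

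In teratomas the pattern lay elsewhere. The pair differed by less than 2-fold, while 2 CC ligands were lower and 2 other ligands higher in the knockout. Of 21 genes measured, 2 were past 2-fold higher and 2 past 2-fold lower, against 3.25% higher and 1.07% lower among the 12197 genes measured. Their median difference was -0.09, and that of all genes 0.06, a value that turned to -0.02 after quantile normalization. No chemokine or receptor passed 2-fold in both tissues. Of 14 measured in both, 5 passed it in at least 1 tissue. Over all 11187 genes measured in both, 897 passed it in at least 1 tissue and 59 in both, so 0 of 5 is not read as particular to chemokines.

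Ccl8, a CC ligand made mainly by macrophages that attracts monocytes, eosinophils and T cells in mouse, was at 6.78 in the knockout and 9.28 in the control teratoma, 5.64-fold lower. It lay below the floor on both embryoid body arrays, at 3.91 in each. Ccl6, another macrophage-lineage ligand, was at 6.92 in the knockout and 7.99 in the control teratoma, 2.10-fold lower. Its other probe set, which has a shared-sequence suffix, was at 4.73, below the floor, against 5.21. Averaged over both probe sets, Ccl6 differed by -0.77.

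Ccl8 lies in a run of neighbouring CC ligand genes on chromosome 11 (Ccl2, Ccl7, Ccl11, Ccl12, Ccl8 and Ccl1, in the RefSeq gene table), and the other measured neighbours did not share its difference. Ccl12, a mouse monocyte ligand of Ccr2, was at 5.73 in the knockout and 6.03 in the control. Ccl11, the eosinophil ligand eotaxin, was at 5.87 in the knockout and 4.57, below the floor, in the control, at least 1.73-fold higher, and 1.30 higher with no floor. Within 1 run, then, 1 gene was past 2-fold lower and 1 was a bound in the opposite direction. The second chromosome 11 run holds Ccl5, Ccl9, Ccl6, Ccl3 and Ccl4, of which 3 were measured in teratomas. Ccl6 alone was above the floor on both arrays. In the knockout Ccl9 was at 4.86, below the floor, against 5.41, and Ccl4 at 4.98, below the floor, against 5.20. The Ccl9 and Ccl4 differences are bounds, which can only point toward the array above its floor, so no shared direction is read from them.

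Macrophage genes differed in both directions beside Ccl8 and Ccl6. All 9 macrophage genes were at or above the floor in the knockout and 8 in the control teratoma, and they averaged 7.84 and 7.63. Their median difference was 0.21, with 1 (Cd68) at least 2-fold higher and 0 lower. Csf1r was at 9.67 in the knockout and 9.87 in the control, and Lyz2 at 10.52 against 10.31. The genes below 0 were Csf1r, the mannose receptor gene Mrc1 at 5.88 against 6.60 and Adgre1 at 5.14 against 5.62, which is 3 of the 9. General leukocyte genes went the other way from Ccl8, averaging 8.05 in the knockout and 6.91 in the control teratoma with 3 of 6 at least 2-fold higher, among them Ptprc at 8.86 against 6.74. Lists with lower means in the knockout teratoma were stroma (10.50 against 11.18), definitive endoderm (6.47 against 6.90) and endothelium (6.90 against 7.04). The part of these cell types and of macrophages in the Ccl8 and Ccl6 differences was not tested.

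Among the higher ligands, Cxcl10, which interferon induces and which attracts activated T and natural killer cells through Cxcr3, was at 7.06 in the knockout and 6.01 in the control teratoma, a difference of 1.05. Cxcl9, of the same family and receptor, was at 5.80 against 5.29, a difference of 0.52, and Cxcl11 and Cxcr3 lay below the floor. Of 8 measured interferon-stimulated genes 1, Ifit3, was at least 2-fold higher, and their median difference was 0.66. In embryoid bodies that list had a median of -0.60 with 2 of 7 lower, Ifit2 and Rsad2, while Cxcl10 differed by 0.49. T and natural killer cell markers numbered 0 of 7 at or above the floor in the knockout and 1 of 7 in the control teratoma.

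Cx3cl1, or fractalkine, a ligand held on the membrane of neurons, endothelium and epithelia, was at 8.53 in the knockout and 7.39 in the control teratoma, 2.20-fold higher, by 1 of its 4 probe sets. The other 3 lay below the floor in both teratomas, and the mean of all 4 showed no difference above the floor. Its receptor Cx3cr1, of monocytes and microglia, was at 6.24 in the knockout and 6.13 in the control. Ligand and receptor thus differed by 1.14 and 0.11. Ccr1, a receptor of monocytes and neutrophils, was at 5.25 in the knockout and 4.96, below the floor, in the control teratoma, and lay below the floor in embryoid bodies.

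The remaining teratoma differences were under 2-fold. Ccl27a was at 8.47 in the knockout and 7.62 in the control, a difference of 0.85, by a probe set with a shared-sequence suffix. Cxcl14, made steadily by epithelia and brain, was at 7.57 against 6.82, a difference of 0.74, but its other probe set read 5.95 against 5.91. Cxcl17 differed by 0.46, Ccl25 by 0.13, Cxcl1 and Ccl28 by -0.13, Ccl12 by -0.30 and Cxcl16 by -0.43.

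Of the neutrophil markers 2 of 6, and of the B cell markers 2 of 4, were at or above the floor in the knockout teratoma, against 0 of each in the control. The neutrophil genes S100a8 and S100a9 were at 7.97 and 6.97 in the knockout and below the floor, at 4.70 and 4.94, in the control, while the granule genes Camp, Elane, Mpo and Ngp lay below it in both. Cxcl1, the one neutrophil ligand above the floor among the genes chosen by symbol, was at 7.05 in the knockout and 7.18 in the control. Its other probe sets read 6.95 against 7.35 and 6.27 against 6.37. Ppbp, a chemokine outside the symbol rule, was at 6.55 in the knockout and 6.17 in the control. Cxcl2 and Cxcl5 lay below the floor in both teratomas, at 4.34 and 4.82 in the knockout and 3.60 and 3.98 in the control, and the receptor Cxcr2 was at 3.24 in each. The B cell gene Ms4a1 was at 7.93 in the knockout and 3.20 in the control and Cd79b at 6.04 against 3.73, Cd79a and Pax5 lay below the floor in both, and the B cell ligand Cxcl13 and its receptor Cxcr5 lay below the floor in both.

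**Figure D4:**
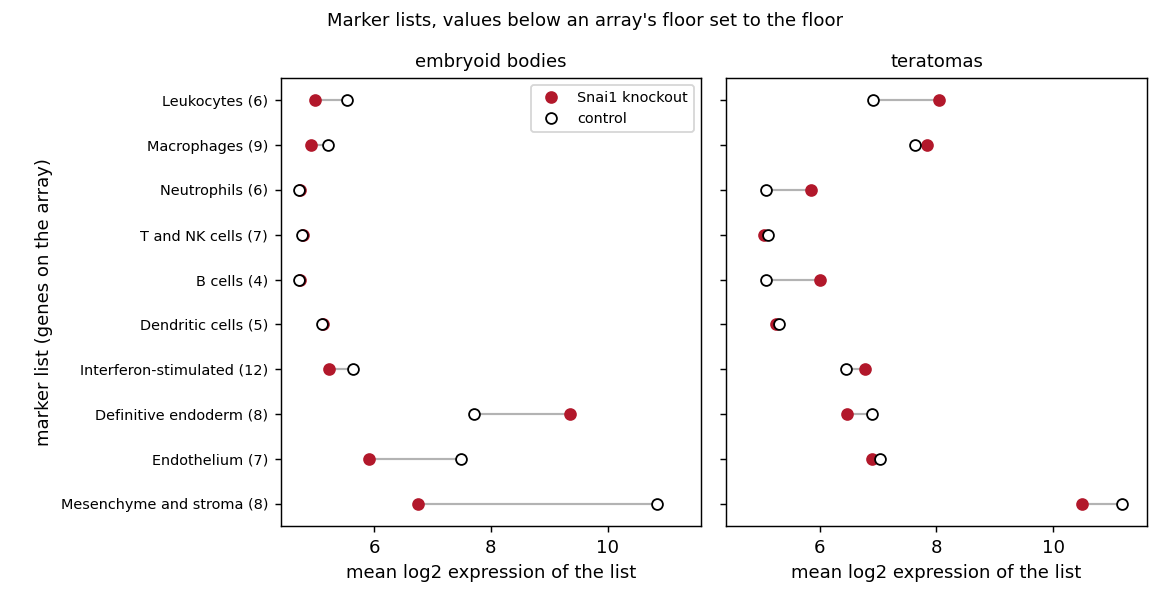
Mean log2 expression of 10 marker lists (number of genes on the array in brackets) in knockout (red) and control (open) arrays, for embryoid bodies on the left and teratomas on the right, with values below a floor set to it. In embryoid bodies the widest gaps are those of stroma (6.74 against 10.85) and definitive endoderm (9.35 against 7.72), and in teratomas those of leukocytes (8.05 against 6.91), B cells and neutrophils.

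The rest of the chemokine system was read from a list of 40 genes, 38 of them on the array: scavenger receptors, G protein signalling, proteases and cytokine inputs. Over all genes measured in embryoid bodies, 2.18% passed 2-fold upward and 3.98% downward. Of the list 29 were measured there, with 2 at least 2-fold higher and 3 lower around a median of 0.05. The higher ones were Rgs16, which shortens G protein signals, at 6.34 in the knockout against 5.16 in the control, and Prex1, an exchange factor that activates Rac, at 7.08 against 6.00. The lower ones were Ackr3, Dpp4 and Pf4. The teratoma shares over all genes were 3.25% upward and 1.07% downward. Of the list 29 were measured in teratomas, with 2 higher and 0 lower around a median of 0.18. These were Rgs1, a lymphocyte brake on chemokine signals, at 6.57 in the knockout against 5.06, below the floor, and Cd74, the invariant chain of class II antigen presentation and receptor of the cytokine Mif, at 8.74 against 7.70. Of the other scavengers, Ackr1 was at 6.69 in knockout and 6.49 in control embryoid bodies and at 8.03 in the knockout and 7.86 in the control teratoma, and Ackr2 lay below the floor throughout.

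The last comparison set teratomas against embryoid bodies within each genotype. Its arrays also enter the genotype comparisons, and tissue, time, host cells and RNA extraction (Trizol for teratomas, columns for embryoid bodies) cannot be told apart in it. Most measured chemokines were higher in teratomas, but 11 of 21 differences in knockout and 8 of 21 in control cells were bounds. Over all genes 2181 of 12936 and 2130 of 12956 were bounds. A bound can only point toward the array above its floor, so its direction is not separate evidence. In knockout cells 12 of 21 measured genes passed 2-fold upward and 2 downward, against 19.8% higher and 19.8% lower among the 12936 genes measured. In control cells 10 of 21 were higher and 0 lower, against 16.2% and 19.0% of 12956 genes. The median difference of the chemokine genes was 1.14 in knockout and 0.99 in control cells, and that of all genes -0.15 and -0.18.

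These 2 comparisons share no array, and 8 genes were at least 2-fold higher in both: Ccl6, Ccl8, Ccl28, Cxcl10, Cxcl14, Cxcl17, Cx3cl1 and Cx3cr1. That is 66.7% of the knockout list and 80.0% of the control list. No overlap over all genes was set beside these shares, so they are not read as particular to chemokines. Ccl8 was higher by at least 4.14-fold in the knockout teratoma, with a bound of 23.7-fold in the control. The bounds for Cxcl14 were 7.14-fold in the knockout and 4.33-fold in the control, but its other probe set, above the floor on all 4 arrays, read 5.95 in the knockout teratoma against 4.97 in knockout embryoid bodies and 5.91 against 4.91 in controls, both just under the 2-fold line. Cxcl17 was 4.69-fold higher in the knockout and 4.67-fold higher in the control, and Ccl28 2.85-fold in the knockout and, as a bound, 4.87-fold in the control. The other probe set of Ccl28 was lower in both teratomas, at 5.36 in knockout and 5.59 in control teratomas against 5.80 and 5.82 in the matching embryoid bodies. Membership of the 8 depended on the probe set and the scaling. With arrays centred on their medians, Cx3cl1 at 0.84 and Cxcl10 at 0.90 were under 2-fold in the control, and with the mean of probe sets Ccl28 was at 0.33 in the knockout and 0.45 in the control and Cx3cl1 at 0.34 in the knockout. Cxcl1 was not among the 8 by its brightest probe set, while its other 2 were higher by 1.26 and 1.16 in the knockout and by 1.66, a bound, and 1.60 in the control.

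Past 2-fold higher in the knockout and not in the control were Ccl11, Ccl27a, Cxcl9 and Cxcl12, and the reverse held for Ccl12 and Cxcr4, differences that were not tested. Ccl27a at 0.99 and Ccl12 at 1.00 lay at the 2-fold line in the other genotype.

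Cxcr4 was lower in the knockout teratoma than in knockout embryoid bodies by 1.36 log2 units and higher in the control teratoma than in control embryoid bodies by 1.21. Cxcl12 was 1.96 higher in the knockout teratoma and 0.33 higher in the control teratoma by its brighter probe set, and the control value was -0.04 when arrays were centred on their medians. Its other measured probe set was lower in teratomas, at 6.32 against 7.04 in knockout and 7.24 against 9.58 in control cells, and the mean over probe sets gave 0.34 in knockout and -0.68 in control cells. The direction of Cxcl12 between tissues is therefore not settled. Beside Cxcr4, Ccl20 was the only gene past 2-fold lower in the knockout teratoma than in knockout embryoid bodies, by at least 2.04-fold. Macrophage genes at or above the floor numbered 9 of 9 in the knockout teratoma against 3 of 9 in knockout embryoid bodies, and 8 of 9 in the control teratoma against 4 of 9 in control embryoid bodies. The 3′ minus 5′ signal of Gapdh, a gauge of RNA integrity, was 0.40 and 0.65 in the knockout and control teratomas and 0.10 and 0.17 in the knockout and control embryoid bodies. The part of host leukocytes and of RNA quality in the tissue difference was not tested.

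**Figure D5:**
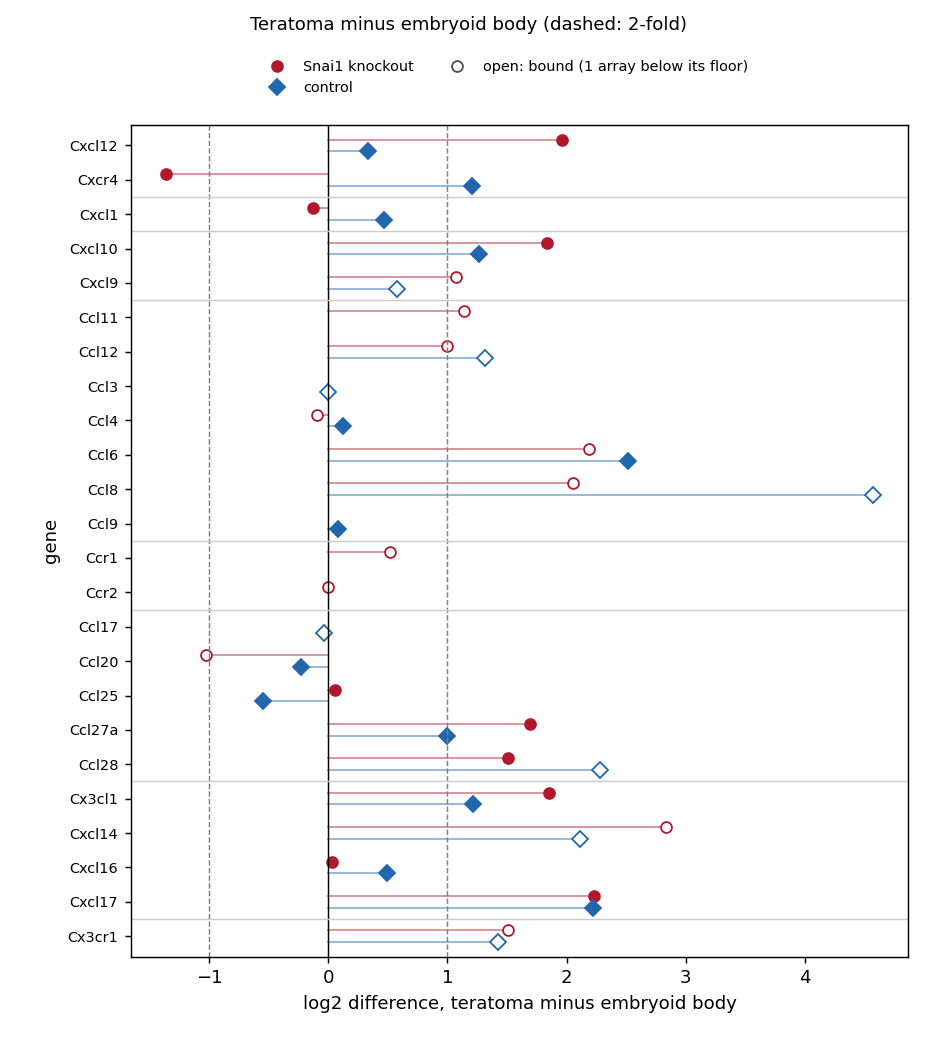
Log2 difference, teratoma minus embryoid body, for the same 24 genes in knockout (red circles) and control (blue diamonds) cells, with open symbols for bounds and dashed lines at 2-fold. Most symbols lie right of 0, up to 4.57 for Ccl8 in controls, and Cxcr4 lies on opposite sides at -1.36 in the knockout and 1.21 in the control.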

How the data were processed

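Per the submitters' processing notes, the authors deposited log2 values per probe set made with affy and RMA, which corrects background, normalizes by quantiles and summarises probes. Neither their versions nor the set of arrays normalized together is stated there. Per the labels' protocols, 250 ng of total RNA was amplified and labelled with biotin. Of 45101 probe sets, 64 controls were left out, and 34945 of the others named 1 gene in the platform annotation. A gene with several probe sets was read from the one brightest on average. Values below an array's floor (its median) were set to it, and a bound that pointed away from the array above its floor was set to 0. Every gene at or above a floor is named with values. The number of arrays limits the precision, and the code was tested on simulated data. Members and lists were chosen with earlier results of these data known. Of 115 marker and pathway genes 109 were on the array, 1 through an updated symbol. Alternatives covered the probe set, scaling, floor and threshold. Python 3.11.15 with pandas 2.3.3 was used.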

Additional observations from a re-analysis of the deposited data

Results flagged for a closer look

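Cxcr4 differed between knockout and control in opposite directions in the 2 tissues, by 2.37 log2 units in embryoid bodies and by -0.20 in teratomas. The difference between tissues was not tested, and the teratoma value is below the pooled spread between probe sets.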

How the results depend on the processing

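No paired analysis was possible because each group has 1 array, and for the same reason no array could be left out. In embryoid bodies the calls of Cxcr4 and Cxcl12 held under all 7 other settings of probe set, scaling and floor. The count of 2 genes became 5 of 38 measured with the floor at the 25th percentile and 5 of 48 with none, through Ccl3, Ccl6 and Ccl9. Over all genes 5.46% and 4.85% passed 2-fold in either direction at those settings. With the mean of probe sets Cxcl12 differed by -1.65. In teratomas the count of 4 became 2 of 17 measured with the mean of probe sets, without Ccl6 and Cx3cl1, against 3.18% of all genes. Cxcl10 differed by 0.66 with the floor at the 65th percentile. At 1.5-fold the counts were 6 in embryoid bodies and 8 in teratomas, with no share over all genes set beside them. Teratomas against embryoid bodies gave 9 of 17 genes in the knockout with the mean of probe sets and 6 of 11 with the higher floor, against 14 of 21. Over all genes the shares there were 32.9% and 36.0%, against 39.7%. In the control 6 of 21 genes passed after median centring and 5 of 11 with the higher floor, against 10 of 21. The control shares over all genes were 43.5% and 31.9%, against 35.1%. Median centring moved the median of all genes to -0.55 in that control comparison and to -0.46 in the knockout. No difference past 2-fold turned its sign under these settings. With the mean of probe sets the Cxcl12 difference between tissues was 0.34 in the knockout and -0.68 in the control. The direction of the Ccl4, Ccl9 and Cxcl12 differences between control tissues, and of Ccl25 and Cxcl16 between knockout tissues, turned with the scaling. Genes near the floor are limited by it.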
